A study of Homo sapiens with 7 samples.

Results

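H3K9me3 nucleosomes carrying an activation mark are positions of the HepG2 nucleosome map that have a peak of H3K9me3, the mark of constitutive heterochromatin, together with a peak of H3K4me3, H3K9ac or H3K27ac, the marks of active promoters and enhancers. They were found by matching the identifiers that the peak lists share with the nucleosome map, and positions that also had H3K27me3 were left out. The rule gave 286 of 34534 H3K9me3 positions, out of 14217405 positions in all, and 0.85% (95% interval 0.754 to 0.954) of the 33662 H3K9me3 positions without H3K27me3. Over all 14191134 positions without H3K27me3, 1.02% carried an activation mark. The largest class of the 286 held 111 positions with all 3 activation marks, the trivalent mark "T". Beside it stood 73 positions with H3K27ac only, 65 with H3K9ac only and 37 with another combination.

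The data were 7 samples of HepG2, a human liver cancer cell line, with no treatment compared: native MNase-Seq, which maps nucleosomes by digesting the DNA between them, ChIP-Seq of 5 histone marks, and RNA-Seq. Each assay had 1 library, so there is no replicate error and no test between samples, and the intervals given are exact Clopper-Pearson intervals for counting error only. Neighbouring positions are not independent of each other, so these intervals are too narrow. RNA levels are FPKM (fragments counted per kilobase of transcript and scaled to the mapped fragments of the library), given in 2 columns for the RNA-Seq sample and averaged here. ALB and AFP, defining transcripts of liver and fetal liver, had mean FPKM of 10011 and 3798, and 8 markers of other cell types, among them PTPRC of blood cells and MYOD1 of muscle, lay between 0 and 3.03.

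H3K9me3 is written by the SUV39H enzymes and SETDB1, is bound by HP1 proteins and marks silent repeats, satellite DNA and clusters of zinc finger genes. H3K4me3 and H3 acetylation mark promoters in use, and H3K27ac without H3K4me3 is common at enhancers. H3K9ac and H3K9me3 modify the same lysine, so a single H3 tail cannot carry both at once, although a nucleosome holds a pair of H3 copies. At imprinted control regions the parental copies of a locus are known to carry opposite marks. The marks compared here came from separate libraries. Both marks on 1 nucleosome, marks on different copies of a locus, marks in different cells and a peak called in error cannot be told apart in these lists. How many of the 286 rest on a peak called in error was not tested.

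The sequences below are the promoter windows of 5 genes with an H3K9me3 nucleosome carrying an activation mark downstream of the listed start, chosen to show the range of CpG content among them. They run from 250 bases before to 50 bases after the annotated start, in RefSeq's GRCh38.p14, and are read 5′ to 3′ on the gene's strand, with every CpG in capitals. The windows are chr12:46372724-46373023 on the minus strand for SLC38A2, chr12:120201062-120201361 on the minus strand for RPLP0, chr15:23565424-23565723 on the plus strand for MKRN3, chr4:73404037-73404336 on the plus strand for ALB and chr3:186612810-186613109 on the plus strand for AHSG. The nucleosome coordinates are in hg19, and the bases of the nucleosomes themselves were not read here.
SLC38A2: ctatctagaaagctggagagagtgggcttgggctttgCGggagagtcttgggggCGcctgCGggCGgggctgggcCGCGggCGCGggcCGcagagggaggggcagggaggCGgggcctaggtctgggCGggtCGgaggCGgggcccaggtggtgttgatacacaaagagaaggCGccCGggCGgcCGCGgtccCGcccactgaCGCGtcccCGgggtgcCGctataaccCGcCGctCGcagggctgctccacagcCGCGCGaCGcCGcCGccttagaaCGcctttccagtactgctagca
RPLP0: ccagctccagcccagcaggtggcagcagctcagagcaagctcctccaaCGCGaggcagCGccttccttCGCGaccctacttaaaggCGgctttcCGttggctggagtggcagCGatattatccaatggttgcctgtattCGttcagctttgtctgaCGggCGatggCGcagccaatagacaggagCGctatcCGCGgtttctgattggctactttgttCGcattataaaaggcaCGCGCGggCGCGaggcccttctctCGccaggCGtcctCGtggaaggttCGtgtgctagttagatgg
MKRN3: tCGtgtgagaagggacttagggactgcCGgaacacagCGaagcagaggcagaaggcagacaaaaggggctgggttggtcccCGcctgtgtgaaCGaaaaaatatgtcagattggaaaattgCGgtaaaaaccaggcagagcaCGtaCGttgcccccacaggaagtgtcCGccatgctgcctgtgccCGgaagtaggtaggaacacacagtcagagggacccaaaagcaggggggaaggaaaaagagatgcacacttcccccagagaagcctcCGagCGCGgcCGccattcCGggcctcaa
ALB: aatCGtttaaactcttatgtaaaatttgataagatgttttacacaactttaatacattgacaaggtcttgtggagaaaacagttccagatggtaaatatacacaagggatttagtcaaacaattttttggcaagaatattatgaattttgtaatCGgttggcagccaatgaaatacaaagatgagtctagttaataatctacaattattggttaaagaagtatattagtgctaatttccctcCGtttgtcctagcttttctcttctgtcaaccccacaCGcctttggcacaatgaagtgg
AHSG: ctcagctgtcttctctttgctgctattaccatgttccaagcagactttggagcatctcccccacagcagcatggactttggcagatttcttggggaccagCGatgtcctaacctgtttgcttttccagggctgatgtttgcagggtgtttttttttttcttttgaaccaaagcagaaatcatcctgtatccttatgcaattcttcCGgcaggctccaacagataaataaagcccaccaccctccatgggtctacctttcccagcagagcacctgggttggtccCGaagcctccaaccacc
The window of SLC38A2 holds 33 CpG and that of RPLP0 holds 25. MKRN3 has 15, while the liver genes ALB and AHSG have 4 and 3. Positions with both kinds of mark were thus found downstream of promoters rich in CpG and of promoters poor in it.

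The combinations were unequally represented among H3K9me3 positions. The share with all 3 activation marks was 0.33% (0.271 to 0.397) of H3K9me3 positions and 0.302% of all positions, a ratio of 1.09 (0.898 to 1.31). H3K9ac without the other 2 marks was found at 0.193% of H3K9me3 positions and at 0.0684% of all positions, a ratio of 2.82 (2.18 to 3.59). H3K9ac only was the combination in which H3K9me3 positions stood above the map, with an interval that did not reach 1. Combinations other than these and the trivalent mark lay below the map. For H3K27ac only, the ratio was 0.758 (0.595 to 0.953). H3K4me3 only had a ratio of 0.216 (0.112 to 0.377), resting on 12 positions. The 17 positions with H3K4me3/H3K9ac gave a ratio of 0.471 (0.275 to 0.754).

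**Figure D1:**
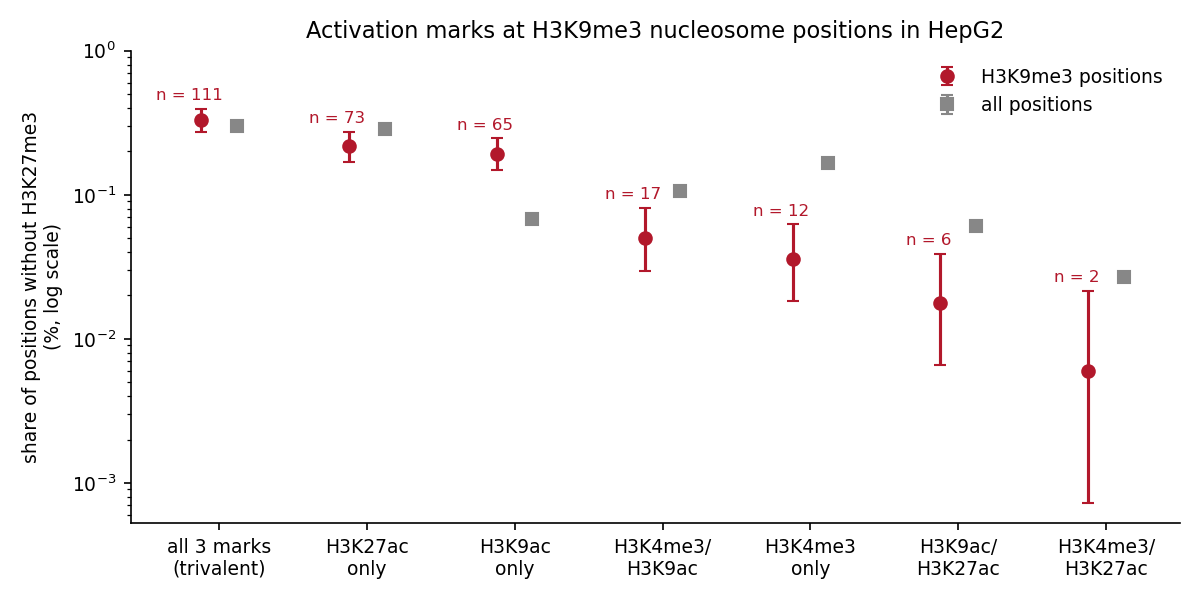
Share of positions without H3K27me3 that carried each combination of activation marks, in percent on a log scale, for H3K9me3 positions (red circles) and for all positions (grey squares). Bars are 95% counting intervals and n is the number of H3K9me3 positions. The red circle lies above the grey square for H3K9ac only (0.193% against 0.0684%), overlaps it for the trivalent mark and lies below it for the other combinations.

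At positions with all 3 activation marks H3K9me3 was about as frequent as in the map, while H3K27me3, the Polycomb mark, was rarer. Of 42887 positions with all 3 activation marks, 114 (0.266%, 0.219 to 0.319) had H3K9me3, beside 0.243% of all positions. H3K27me3 was found at 13 of them (0.0303%, 0.0161 to 0.0518), beside 0.185% of all positions. Of the trivalent positions, 3 carried all 5 marks, and these were left out of the 286. Over all positions with H3K4me3, whatever else they carried, the order was the other way, with H3K9me3 at 0.176% (0.149 to 0.207) and H3K27me3 at 0.453% (0.409 to 0.5). Over all positions with H3K9ac they were found at 0.282% (0.245 to 0.322) and 0.389% (0.346 to 0.435), and over all positions with H3K27ac at 0.204% (0.177 to 0.235) and 0.0282% (0.0186 to 0.041).

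The nucleosomes next to the H3K9me3 positions differed by class. Of the 222 positions directly beside a trivalent H3K9me3 position, 196 (88.3%, 83.3 to 92.2) carried an activation mark, and 87.2% did beside trivalent positions without H3K9me3. Beside H3K9me3 positions with H3K27ac only, the share was 25.3% (18.5 to 33.2), against 48.0% beside H3K27ac-only positions without H3K9me3. Beside those with H3K9ac only it was 7.69% (3.75 to 13.7), against 25.1% without H3K9me3. Thus the trivalent ones sat in strings of activation marks as dense as those of other trivalent nucleosomes, and the H3K9ac-only ones mostly stood alone. Next to H3K9me3 positions without any other mark, 0.138% of the neighbours had an activation mark.

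H3K9me3 itself was mostly absent from the next nucleosome. It was found at 7.34% (5.34 to 9.8) of the direct neighbours of the 286 positions and at 9.46% (5.95 to 14.1) of those of the trivalent ones, beside 7.60% for H3K9me3 positions with no other mark and 0.159% for trivalent positions without H3K9me3. Within 1 kb, 46 of the 286 (16.1%, 12 to 20.9) had another H3K9me3 position, where 2.08% of all positions did, and the count was 36 (12.6%) without positions that overlap. The share among H3K9me3 positions with no other mark was 19.6%. The median distance to the nearest other H3K9me3 position was 39000 bp for the 286, 39100 bp for all positions and 15300 bp for H3K9me3 positions with no other mark. Another activation mark was found within 1 kb of 198 of the 286 (69.2%, 63.5 to 74.5), where 3.51% of all positions had one. The 286 lay below activation-mark positions without H3K9me3 or H3K27me3, of which 90.3% had one. By class this share was 97.3% for the trivalent, 63.0% for the H3K27ac-only and 16.9% for the H3K9ac-only positions. Without H3K9me3 the same classes gave 99.3%, 84.6% and 51.3%.

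**Figure D2:**
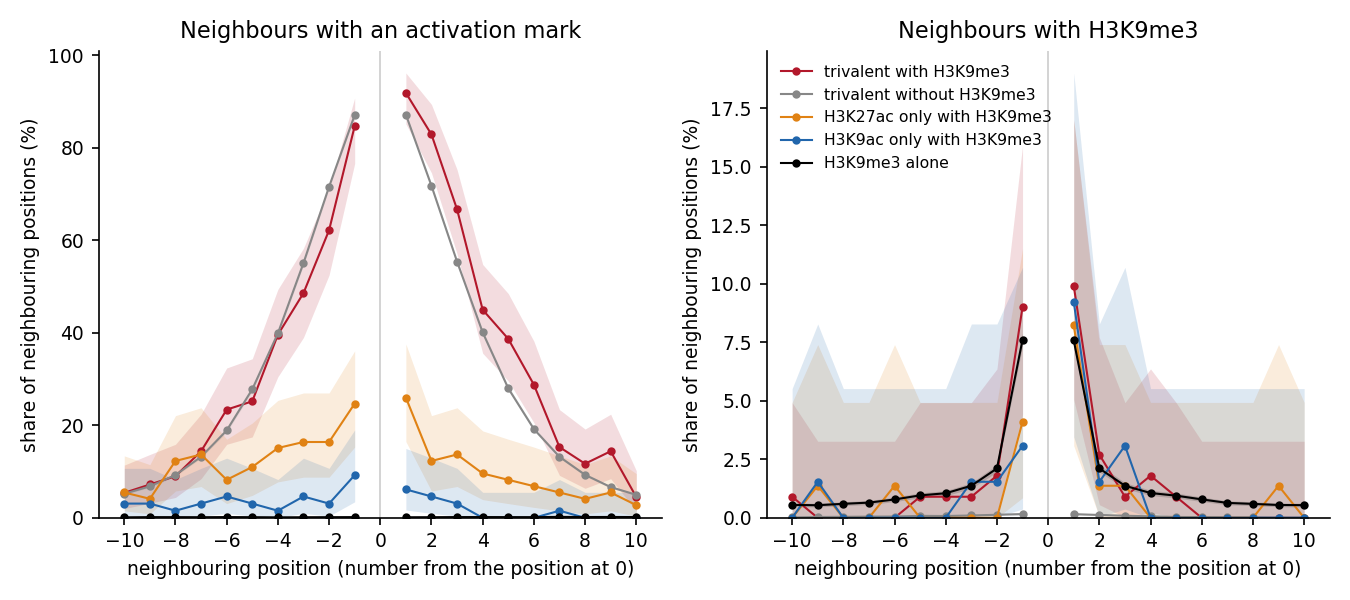
Share of neighbouring nucleosome positions with an activation mark (left) or with H3K9me3 (right), in percent, by rank from the position at 0. Bands are 95% counting intervals. Trivalent positions with H3K9me3 (red) follow those without it (grey) on the left, H3K9ac-only positions with H3K9me3 (blue) stay under 10%, and on the right the share with H3K9me3 falls off beyond the direct neighbour.

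The 286 positions formed 269 runs when those within 1000 bp were joined, and 255 of the runs were a single position. The longest run lay in IGFBP1 (hg19, chr7:45926323-45933267, plus strand), which encodes a secreted binding protein of insulin-like growth factors made in liver. Its 4 trivalent H3K9me3 positions lay 1874, 2494, 2651 and 2969 bp downstream of the listed start, over chr7:45928127-45929361, and all but 2 of the 6 trivalent positions there carried H3K9me3. FPKM was 52.9 and 56.8 in the 2 columns. SLC38A2 (chr12:46751011-46766662, minus strand), a sodium-coupled transporter of neutral amino acids, had 3 such positions, 620, 842 and 955 bp downstream, among 8 trivalent positions around its start. Its FPKM was 230 and 237, so the run lay in a strongly transcribed gene. The positions at 842 and 955 bp overlap, and overlapping positions can share reads.

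A pair of positions made up 12 runs. DUSP6, a phosphatase that switches off ERK, had its pair 384 and 564 bp downstream of the start, with trivalent positions on both sides, and FPKM of 14.3 and 14.4. RPLP0, a protein of the large ribosomal subunit, had its pair at 222 and 390 bp and FPKM of 1302 and 1300. Pairs of trivalent positions were also found in ID1, an inhibitor of basic helix-loop-helix factors (FPKM 267 and 266), in NEDD4L, a ubiquitin ligase (27.7 and 28.2), in PCGF3, a Polycomb group ring finger protein (12.6 and 11.9), and in the overlapping loci of PCNXL3 and MAP3K11. In 6 of the 12 pairs both positions were trivalent. The pair in UBD, a ubiquitin-like protein, carried H3K4me3/H3K9ac and H3K4me3 instead, at 1258 and 1393 bp, and UBD had a mean FPKM of 95.4. The positions of the UBD pair overlap and so can share reads. The same holds for the pair of PCNXL3 and MAP3K11 and for an H3K27ac-only pair at chr12:131239202-131239451. NEGR1, a neuronal adhesion protein listed at 0 in both columns, held a pair with H3K27ac only 46572 and 46716 bp into the locus, followed by 4 further H3K27ac positions.

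**Figure D3:**
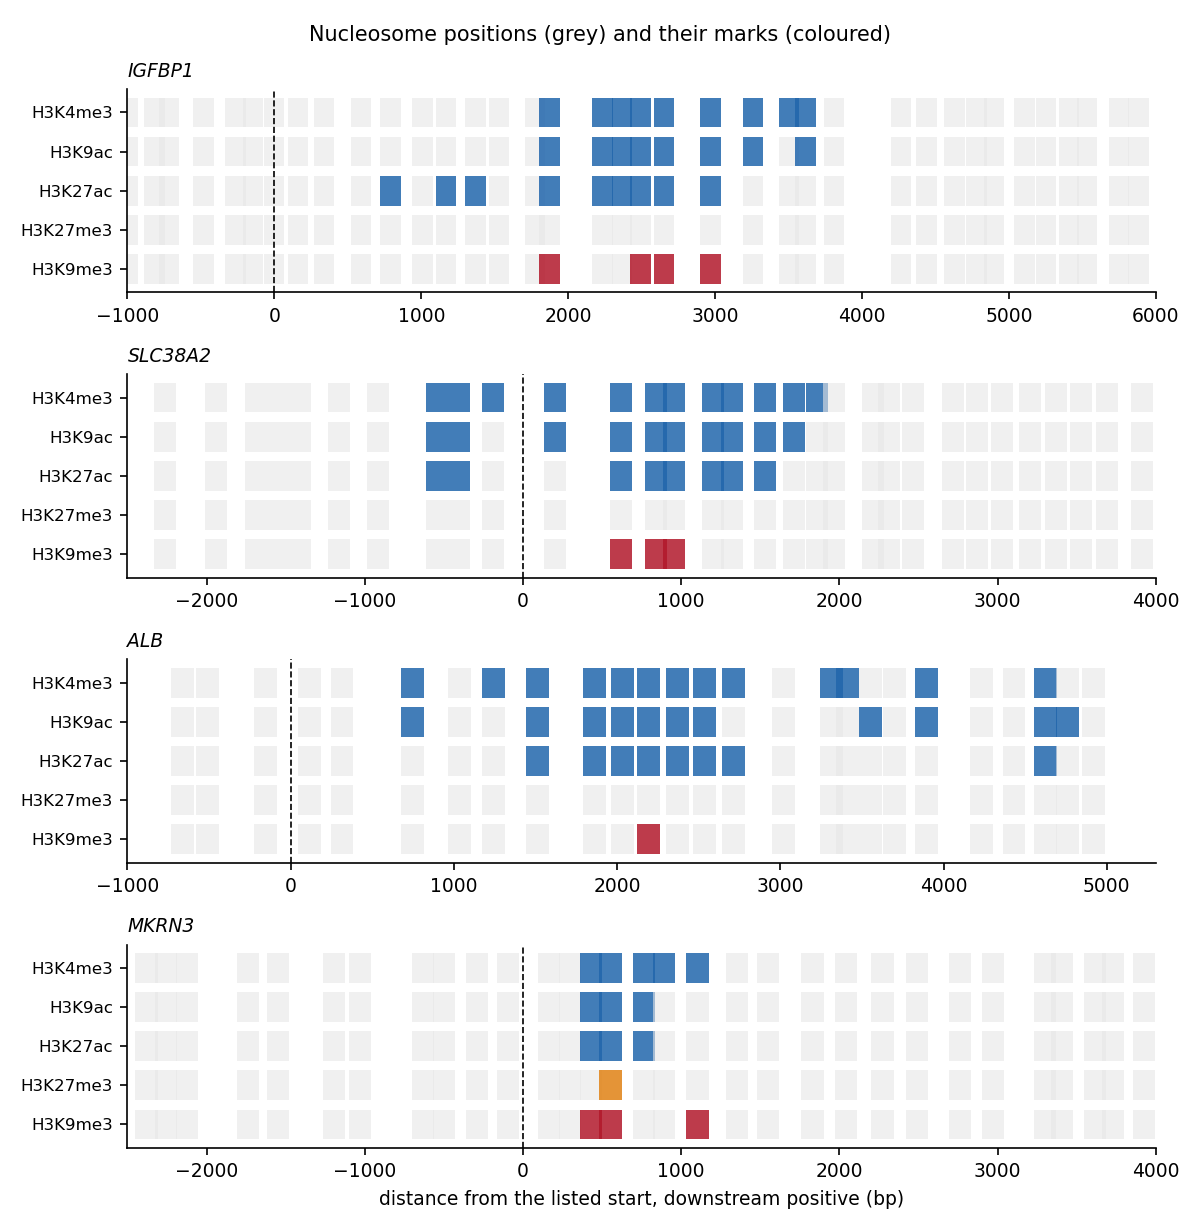
Nucleosome positions (grey boxes) around 4 loci and the marks at each (coloured boxes, 1 row per mark: activation marks blue, H3K27me3 orange, H3K9me3 red), by distance from the listed start in bp, downstream positive. H3K9me3 appears at 4 positions in IGFBP1, at 3 in SLC38A2, at 1 inside the trivalent string of ALB and at 3 in MKRN3, where the position at 553 bp also has H3K27me3.

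The distance to gene starts was measured for loci with coordinates of their own, with the strand inferred from the numbering of the table. Of the 286, 68 (23.8%, 19 to 29.1) lay within 2 kb of a listed start, where 1.78% of all positions did. Among the trivalent ones it was 53 of 111 (47.7%, 38.2 to 57.4), and 45.1% of trivalent positions without H3K9me3 lay as near. Of those 53, 46 (86.8%, 74.7 to 94.5) were downstream of the start, and of the trivalent positions without H3K9me3 80.4% were. The bin from 500 to 1000 bp downstream held 23 of the 111 trivalent H3K9me3 positions (20.7%) and 12.6% of the others, and the bin from 0 to 500 bp held 16.2% and 16.3%. None of the 73 H3K27ac-only positions (0%, upper bound 4.93%) was within 2 kb of a start, while 3.70% of H3K27ac-only positions without H3K9me3 were. For H3K9ac only it was 4 of 65 (6.15%, 1.70 to 15), against 15.5% without H3K9me3.

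**Figure D4:**
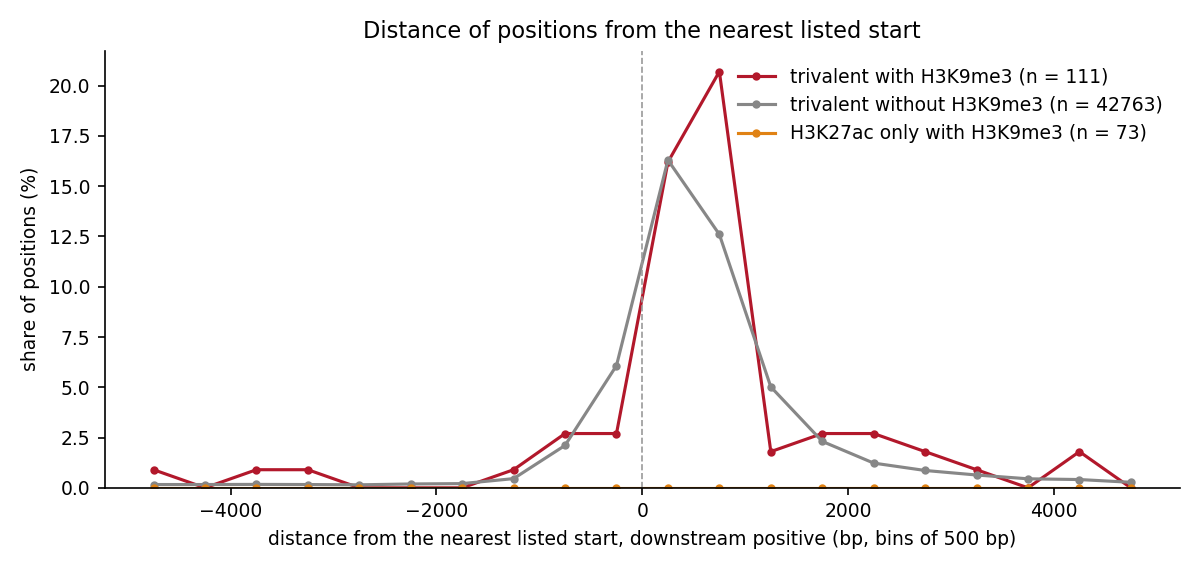
Share of positions by distance from the nearest listed start, in percent per bin of 500 bp, downstream positive, for trivalent positions with (red) and without (grey) H3K9me3 and for H3K27ac-only positions with H3K9me3 (orange). The red line peaks at 20.7% between 500 and 1000 bp downstream, where the grey line is at 12.6%, and the orange line stays at 0 within 2 kb.

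Named loci of the expression table lay within 10 kb of 217 of the 286 positions (75.9%, 70.5 to 80.7), where 52.7% of all positions had 1 as near and 35.4% of H3K9me3 positions with no other mark. For activation-mark positions without H3K9me3 or H3K27me3 it was 83.0%, above the interval of the 286. Counting a position inside a long gene only by the nearer end of the gene lowered the share of the 286 to 47.6%. By class the share was 93.7% for the trivalent, 74.0% for the H3K27ac-only and 52.3% (39.5 to 64.9) for the H3K9ac-only positions. Without H3K9me3 the same classes gave 94.4%, 71.1% and 71.2%. The 69 positions with no named locus within 10 kb were 31 with H3K9ac only, 19 with H3K27ac only, 7 trivalent and 12 others.

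The neighbouring loci numbered 322, or 1.46% of 22118 named loci. Of these, 223 (69.3%, 63.9 to 74.3) had an FPKM of 1 or more, where 51.4% of all named loci did, and 69 (21.4%, 17.1 to 26.3) were under 0.1, where 36.6% of all were. An FPKM of 100 or more was found for 34 (10.6%, 7.42 to 14.4), beside 3.28% of all named loci. Several loci can come from 1 position, so they are not independent and these intervals too are too narrow. The position at chr1:173836897-173837036 gave 12 loci, of which GAS5, SNORD47, SNORD74 and SNORD79 were at 100 or more. SNORD47, SNORD74 and MIR3189 were at 0 in 1 column. The median FPKM of the 322 was 7.12, against 1.24 for all named loci and 0.546 for loci near H3K9me3 positions with no other mark. Near activation-mark positions without H3K9me3 or H3K27me3, 65.2% of 17275 loci had an FPKM of 1 or more, inside the interval of the 322, and the median was 4.77. With a window of 50 kb the median fell to 4.12.

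The classes went along with different RNA levels. Near trivalent H3K9me3 positions, 76.2% (69.1 to 82.3) of 172 loci had an FPKM of 1 or more and the median was 11.6, where trivalent positions without H3K9me3 gave 77% and 7.89. Near H3K27ac-only positions it was 69.6% (58.2 to 79.5) of 79 loci with a median of 4.48, and 73.2% and 7.06 without H3K9me3. Near H3K9ac-only positions 41.2% (27.6 to 55.8) of 51 loci reached 1, 39.2% were under 0.1 and the median was 0.316, and without H3K9me3 65.3% reached 1 and the median was 4.75. The shares of the trivalent and H3K27ac-only classes thus lay near those of the same class without H3K9me3, and the share of the H3K9ac-only class lay below. The median of the H3K9ac-only class lay below the 1.24 of all named loci, and the medians of the other classes lay above it. Its share at 1 or more (27.6 to 55.8) and its share under 0.1 (25.8 to 53.9) had intervals that included those of all named loci, 51.4% and 36.6%. Among loci with coordinates of their own, 15 of 80 near a trivalent H3K9me3 position (18.8%, 10.9 to 29.0) had an FPKM of 100 or more, beside 2.99% of all such loci and 5.59% of those near a trivalent position without H3K9me3. For starts within 2 kb the same comparison gave 7 of 47 (14.9%, 6.20 to 28.3) against 6.35%, a difference within the counting interval. Of the 47, 43 (91.5%) had an FPKM of 1 or more, where 47.2% of all loci with coordinates of their own did. The share was 94.2% for 5939 genes with a trivalent position without H3K9me3 and 6.20% for 242 genes with an H3K9me3 position that had no other mark.

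**Figure D5:**
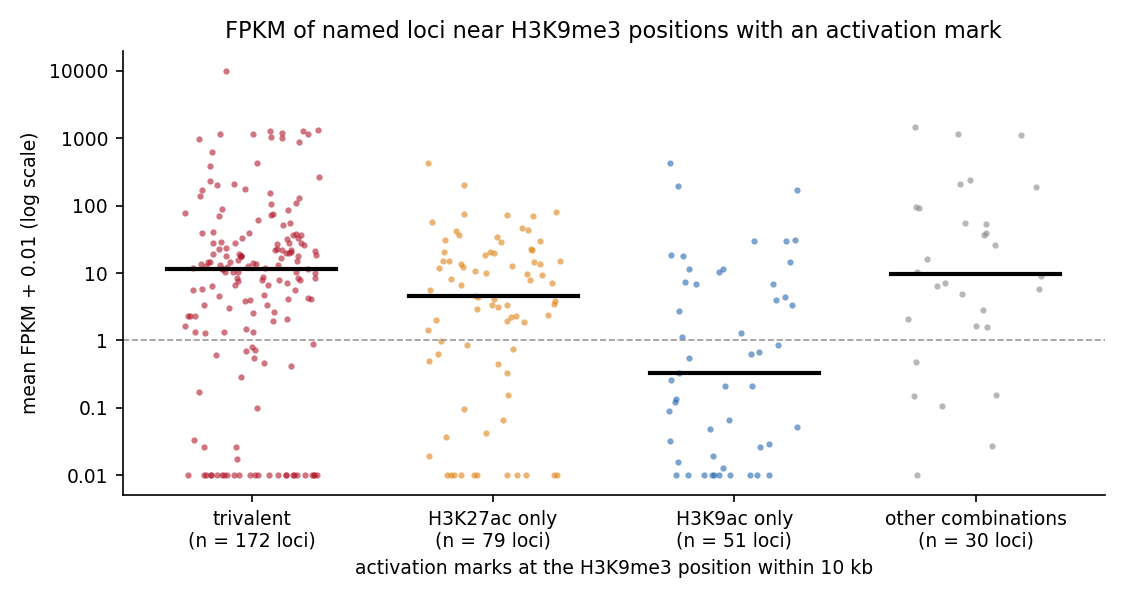
Mean FPKM plus 0.01, on a log scale, of each named locus within 10 kb of an H3K9me3 position with an activation mark, by the marks at that position. Each point is a locus, a locus near several classes appears in each, black lines are medians and the dashed line is at 1. The median is 11.6 for the trivalent class and 0.316 for H3K9ac only, with points at every level from 0 upwards in both.

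Liver genes were among the neighbours of highest FPKM. In ALB, the main protein of plasma (chr4:74269690-74287767, plus strand), 1 of 7 trivalent positions carried H3K9me3, 2192 bp downstream of the listed start, and FPKM was 9933 and 10088. AHSG, the fetuin-A secreted by liver, had H3K4me3/H3K9ac with H3K9me3 1052 bp downstream, just beyond a string of 4 trivalent positions, and FPKM of 1476 and 1470. GPC3, a heparan sulfate proteoglycan of fetal liver and liver cancer, had a trivalent H3K9me3 position at 3038 bp and FPKM of 1310 and 1352. TF, the iron carrier transferrin, had its trivalent H3K9me3 position 34045 bp from the start of a long listed locus, flanked by trivalent positions on both sides, and FPKM of 1005 and 1006. In each of these genes H3K9me3 sat at a single nucleosome, with only activation marks at the other marked positions within 3 kb. LYZ, the antibacterial enzyme lysozyme, had its position at 943 bp and FPKM of 1148 and 1198.

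Other neighbours of high FPKM were less certain. NOP56 had FPKM of 2436 and 162, and SNORD74 of 0 and 2377, so 1 column decided their rank, as it did for MIR3189. These 3 and SEPP1, SNORD79 share their listed coordinates with other loci. AKR1C1, an aldo-keto reductase with FPKM of 448 and 419, has near-identical paralogs, among which reads can be split. In the 223 loci at an FPKM of 1 or more, both columns agreed within 1.5 times for 216.

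Among the silent neighbours, NEGR1 and PCDH15, a protocadherin of hair cells, were listed at 0 over loci of long span and held 2 positions each, none of them trivalent. MEIG1, which acts in the germ line, was listed at 0 although a trivalent H3K9me3 position lay 669 bp downstream of its start. HIST2H2AA4, a histone gene with a near-identical copy whose reads cannot be assigned with certainty, was listed at 0 with a trivalent H3K9me3 position 154 bp from the start of a locus whose coordinates it shares. The other loci under 0.1 taken by the rule, MRAP, SNORD110, SNORD56, SNORD57, LOC100189589 and LOC100192426, also share their coordinates with other loci. Low FPKM therefore occurred next to trivalent H3K9me3 positions as well. The gene with a trivalent H3K9me3 position nearest to an end of the locus was STAG3L3, a member of a family of near-identical copies whose reads cannot be assigned with certainty. The position lay 143 bp downstream of its start with no other activation mark within 5 kb, and FPKM was 0.793 and 0.610. After it came, among others, NDUFA4, a subunit linked to cytochrome oxidase (FPKM 85.5 and 87.6), PPIF, the mitochondrial cyclophilin (142 and 138), FKBP4, an Hsp90 co-chaperone (33.6 and 33.8), YWHAE, an adaptor for phosphorylated proteins (204 and 204), and AP2A2, a clathrin adaptor subunit (14.4 and 13.0). ITPR2, a calcium channel of the endoplasmic reticulum with FPKM of 20.3 and 20.9, had positions 1154 and 72077 bp downstream of its start, of which 1 was trivalent.

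The H3K27ac-only and H3K9ac-only H3K9me3 positions lay mostly away from starts, and those near named loci were inside or beside genes of mixed level. At AKR1C1 and its paralog AKR1C4, reductases of steroids and aldehydes, several classes met: AKR1C1 had a trivalent position 4303 bp downstream of its start, an H3K27ac-only position at 12858 bp and an H3K9ac-only position beyond its end, at chr10:5024727-5024866. AKR1C4 had an H3K27ac-only and an H3K9ac-only position beyond its end, and its FPKM was 0.886 and 0.826. H3K27ac-only positions were also found in A1CF, the cofactor of APOB mRNA editing (FPKM 30.7 and 29.9), in YAP1, the effector of the Hippo pathway (43.2 and 43.8), and 4423 bp from G6PC, the phosphatase that releases glucose from liver (1.77 and 2.05). An H3K9ac-only position lay 7457 bp from GCG, the glucagon gene, which was listed at 0, and another lay in NR3C1, the glucocorticoid receptor (11.6 and 11.3), 240 bp downstream of its start. These examples were chosen after their values were seen, and both classes held loci listed at 0 and loci at an FPKM of 1 or more. NEGR1, at 0, was near H3K27ac-only positions, and AKR1C2, at a mean FPKM of 172, was near an H3K9ac-only one. Under an FPKM of 0.1 were 20.3% of the 79 loci of the H3K27ac-only class and 39.2% of the 51 of the H3K9ac-only class, beside 36.6% of all named loci.

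Of the 17 positions with H3K4me3/H3K9ac, 13 (76.5%, 50.1 to 93.2) had a named locus within 10 kb, where 52.7% of all positions did. Of the 17 loci near them, 14 (82.4%, 56.6 to 96.2) had an FPKM of 1 or more, beside 51.4% of all named loci. Near activation-mark positions without H3K9me3 or H3K27me3 the share was 65.2%, inside that interval. An FPKM of 100 was reached by 6 of the 17, beside 3.28% of all named loci, and by 2 of 10 with coordinates of their own, beside 2.99%. The 6 include MIR3189, which is at 0 in 1 column and shares its position and listed coordinates with GDF15. XBP1, a transcription factor of the unfolded protein response, had a position of this class 898 bp downstream of its start among 4 trivalent positions, and FPKM of 193 and 191. GDF15, a stress-induced cytokine whose coordinates in the table are shared with another locus, had FPKM of 241 and 233. PHF8, a demethylase that removes lower methylation states of H3K9, had its position at 2377 bp and FPKM of 7.26 and 6.86.

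Of 54 loci on a list of imprinted genes, 3 (5.56%, 1.16 to 15.4) lay within 10 kb of an H3K9me3 position with an activation mark, where 1.46% of all named loci did. MKRN3, a paternally expressed ring finger gene whose coordinates in the table are shared with another locus, had 2 of these positions. They lay 430 bp downstream of the listed start, with all 3 activation marks, and 1103 bp downstream, with H3K4me3 only. A position between them, at 553 bp, carried all 5 marks and was not counted, and the 5 marked positions of this locus all fell between 430 and 1103 bp. FPKM of MKRN3 was 1.44 and 1.77. In the SNRPN and SNURF locus, which is also expressed from the paternal copy, FPKM was 68.9 and 75.7. A trivalent H3K9me3 position lay 132318 bp from the start of this long listed locus, between trivalent positions at 132039 and 132548 bp. Its distance from the annotated SNURF start, which was read in GRCh38.p14, was not measured. INPP5F, a phosphoinositide phosphatase with an imprinted isoform, had its position at 518 bp and FPKM of 6.24 and 7.26.

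Of 22 loci for enzymes and readers of H3K9 methylation, 1 was a neighbour: SUV39H2, an H3K9 methyltransferase, with FPKM of 10.8 and 12.5. Its listed coordinates are shared with DCLRE1C. The position lay 5251 bp beyond the end of this shared interval and 84851 bp from its start, and was the one found 669 bp downstream of the start of MEIG1. Loci of ZNF genes, clusters of which are a known site of H3K9me3, gave 13 of 536 (2.43%, 1.30 to 4.11). These are loci and not separate genes, as ZNF117 and ZNF517 are each listed on both strands. ZNF34 and ZNF517 were neighbours of 1 and the same position, as were ZNF280A and ZNF280B. The counts are therefore not independent, and the interval is too narrow. RPL and RPS genes, for ribosomal proteins, gave 5 of 85 (5.88%, 1.94 to 13.2), and the loci of the liver markers gave 2 of 12, ALB and TF. The 8 markers of other cell types gave 0. The 1.46% of all named loci lay inside the intervals of the imprinted, H3K9 and other-cell lists, near the lower end of the ZNF interval, and below those of the RPL and RPS and liver lists, and the counts describe the loci without setting a list apart.

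Promoter windows were matched by symbol for 35 of the 48 symbols with a trivalent H3K9me3 position within 2 kb of the listed start, giving 48 windows. Their median ratio of observed to expected CpG was 0.883, against 0.829 for genes with a trivalent position without H3K9me3, 0.338 for genes with an H3K9me3 position that had no other mark and 0.579 for all 35116 windows. A gene with both kinds of trivalent position, such as SLC38A2 or DUSP6, is in both sets. The windows thus resembled those of genes with a trivalent position without H3K9me3 in CpG content. The letters TGCCGC, the motif read by the zinc finger protein ZFP57 at imprinted loci, were searched on both strands. They were found in 17 of the 48 windows (35.4%, 22.2 to 50.5). The share was 24.6% for genes with a trivalent position without H3K9me3 and 16.7% for all windows. The difference between the shares of the 2 trivalent sets lay within the counting interval. SNURF had 2 matches, SLC38A2 and DUSP6 had 1 each and MKRN3, RPLP0, ALB and AHSG had 0.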

How the data were processed

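HepG2 cells were assayed by native MNase-Seq, by ChIP-Seq of 5 histone marks and by RNA-Seq, with 1 library per assay. The submitters' processing notes name hg19, BWA for the MNase-Seq and ChIP-Seq reads, and TopHat2 2.1.0, Bowtie, HOMER 4.7 and edgeR for RNA-Seq. The authors called nucleosome positions of 140 bp with DANPOS and peaks at them with NUCLIZE, keeping peaks by P value, false discovery rate and enrichment over input DNA. The main text of the paper gives a rounded number of aligned reads for MNase-Seq, a single lower bound for the ChIP-Seq marks and none for RNA-Seq. The deposited lists hold coordinates and identifiers without read counts, so the depth behind a single position or peak is unknown. The authors deposited FPKM in 2 columns of a table in the layout of Cuffdiff, with their own comparison of the columns, which was not used, and which tool made the FPKM is not given in the sources used here. Whether the columns are separate cultures is not stated either.

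A peak was assigned to the position whose identifier it carries. All peaks matched and reached 3 bp beyond the position. A locus was a neighbour if it lay within 10 kb. Loci that share coordinates were kept but marked. The strand was inferred from 3 blocks of locus numbers per chromosome, and H3K4me3 lay at the inferred start in 5650 of 5733 loci with their own coordinates and in 2102 of 3348 that share them. Coordinates are 1-based. Named loci were those with the most positions, the highest FPKM, an FPKM under 0.1 nearest to a position, a trivalent position within 2 kb (ties by distance to the nearer end of the locus), and list members; loci named for a pair of positions or as examples of the H3K27ac-only, H3K9ac-only and H3K4me3/H3K9ac classes were chosen after their values were seen. The members and lists were chosen with earlier results of these data known. Ratios treat the share over all positions as exact. Counting steps were tested on simulated data of 200000 positions, in which 180 of 180 planted positions were recovered. The tools were scipy 1.17.1, pandas 2.3.3 and numpy 2.4.6 under Python 3.11.15, with plots by matplotlib 3.10.9.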

Additional observations from a re-analysis of the deposited data

How the results depend on the processing

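Of 29 alternatives for 7 results, 20 stayed within the counting interval of the value given or, for a number or a median, within 1.5 times of it. Counting a peak at every position that it overlaps raised the number of positions from 286 to 430, and the share of H3K9me3 positions that carry an activation mark was then 0.877%. The share within reach of a named locus was 69.2% at 2 kb, 85.3% at 50 kb and 47.6% by distance to the nearer end of a locus. The share of neighbouring loci that count as expressed was 78.6% at a limit of 0.1, 54.3% at a limit of 5, 74.5% for loci with their own coordinates and 62.2% for loci within 50 kb, and the median FPKM was 4.12 within 50 kb. Leaving out loci named SNOR or MIR, an alternative added after the data were seen, gave 73.8% and a median of 8.38, and leaving out overlapping H3K9me3 positions, also added then, gave 12.6%. No library could be left out, since each assay had 1. No paired analysis was possible because no groups of samples were compared. The lists give no read counts, so whether a peak lay near its calling threshold was not tested, and input DNA was not analysed here.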

Other observations

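A further 20 positions carried H3K9me3, H3K27me3 and an activation mark. Of these, 10 had H3K9ac as their activation mark, 3 had H3K4me3, 3 had H3K4me3/H3K9ac, 1 had H3K9ac/H3K27ac and 3 had all 3. With them the number of H3K9me3 positions with an activation mark was 306.

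Over all chromosomes the 286 were 0.828% of H3K9me3 positions and 0.198% of activation-mark positions, and the order of chromosomes depended on which was used. Chromosome X held 15, of which 11 were trivalent, and lay above both, with 2.71% (1.53 to 4.43) of its 553 H3K9me3 positions and 0.522% (0.292 to 0.859) of its activation-mark positions. Chromosome 22 held 9, which were 4% (1.85 to 7.46) of H3K9me3 and 0.262% (0.12 to 0.496) of activation-mark positions. Chromosome 17 held 13, which were 2.43% (1.30 to 4.11) and 0.158% (0.0844 to 0.271). For these 2 chromosomes the share of activation-mark positions had an interval that included the overall value. Chromosome 12 held 22, of which 16 were trivalent, among them the runs of SLC38A2, DUSP6 and RPLP0. Its shares were 1.32% (0.827 to 1.99) and 0.303% (0.19 to 0.459), and both intervals included the overall values. By the share of activation-mark positions alone, the intervals of chromosomes 4, 10 and 18 also lay above the overall value. Those of chromosomes 6, 16 and 19 lay below it.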
